A study of Mus musculus with 8 samples.

Results

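NIH3T3 is a mouse embryonic fibroblast line, and PGC7, also named Stella or Dppa3, is an oocyte and germ cell protein that had been brought into these cells with a virus. The 3 arrays described here, of 8 in the series, all came from NIH3T3 cells overexpressing PGC7: 1 from the culture before cloning (a mixture of clones, called uncloned below), 1 from clone 1 and 1 from clone 2, chosen by their titles. All 3 cultures shared the virus infection with polybrene, the medium with 10% fetal bovine serum and the overexpressed PGC7. A control culture without PGC7 is not used here, so nothing below compares cells with and without it. The promoter that drove PGC7, the length of culture after cloning, and whether the clones were picked from the very culture that was assayed uncloned are not stated by the labels. The genotype label called all these samples pre-cloned and named the gene PGC8, which goes against the titles. With 1 array per culture, the spread used below is that between 2 clones, and it holds clonal and technical differences together.

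A culture infected with a virus is a mixture of cells with different insertion sites and different histories. A clone grown from a single cell carries 1 of those histories, so stable differences between the cells of a mixture, in chromosome content or in which genes are silenced, show up as differences between clones or between a clone and the mixture. PGC7 is best known for guarding maternal DNA methylation in the fertilised egg, and methylation is placed mostly on CG pairs of bases. In a bulk culture, fewer cells expressing a gene and less RNA per cell cannot be told apart.

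Both clones differed from the uncloned culture by more than they differed from each other. Among 21901 probe sets bright enough to test, 6.12% were at least 2-fold apart between the uncloned culture and clone 1 and 6.90% between it and clone 2, against 2.41% between the clones. The standard deviation of the log2 differences was 0.55, 0.57 and 0.37 in the same order. The 3 B16F10 PGC7 clones, of a melanoma line, were 1.03 to 2.24% apart in pairs. The uncloned culture stood at least 2-fold from both clones, on the same side, at 748 probe sets (3.42% of those tested). It was lower there at 464 (2.12%) and higher at 284 (1.3%). The filter uses the mean of 2 clone arrays and 1 uncloned array, so a gene high in the clones passes it more easily than one high in the uncloned culture alone. With no filter the share higher in the clones was 53.5%, against 62.0% with it. Clone 1 stood apart from both other cultures at 133 probe sets and clone 2 at 202.

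Tested with limma on all 21901 probe sets, 3265 (14.9%) passed an adjusted p of 0.05, 1803 (8.23%) higher in the clones and 1462 (6.68%) lower. This test rests on 1 residual degree of freedom and on a prior that ties the spread to signal: without that tie no probe set passed (smallest adjusted p = 0.0733 in limma, with 4313 at an unadjusted p under 0.05). Leaving out clone 1 gave 1325 calls and leaving out clone 2 gave 1119, in fits that borrowed their spread from the B16F10 clones. The direction of the calls also rests on the scaling. With the values as deposited the median difference was -0.30, and 10.8% of calls were higher in the clones, against 55.2% after all arrays were scaled to one trimmed mean. The same split for probe sets past 2-fold in both clones was 20.8% against 62.0%. Per gene, taking the brightest probe set, 944 of 10555 genes (8.94%) rose and 832 (7.88%) fell, 16.8% in all. These shares are the background for the counts below with scaled values and all 3 arrays. For counts as deposited the background is 3810 falls and 463 rises among 21999 probe sets. Counts with a clone left out are to be read beside the smaller totals of those fits given above. Past 2-fold in both clones were 332 genes (3.15%), 202 higher (1.91%) and 130 lower (1.23%). "Rose" and "fell" mean passing this test in the clones against the uncloned culture. Values are scaled signals in arbitrary units, and differences are on the log2(signal + 9) scale with the standard error of the fit.

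Of 13 fibroblast markers 11 passed the filter, and Fap and Lum were under it in all 3 cultures. The list had a summed signal of 1.705e+05 in the uncloned culture, 1.919e+05 in clone 1 and 1.959e+05 in clone 2, led by Vim, S100a4, Col3a1 and Col1a2. Of its members 3 rose, and Thy1, Pdgfra and Col1a1 fell. None of the 5 measured lymphocyte markers and none of the 5 endothelial markers passed the filter. The sums of the melanocyte, macrophage, adipocyte and neuron markers ran from 145 to 1193. The muscle list summed to 1880, 589 and 780, carried by Chrna1. The clones lay close to the uncloned culture in their ratios of 3' to 5' control signal (1.2, 1.2 and 1.155 for beta-actin), and the hybridization controls differed by 0.30 in clone 1 and -0.07 in clone 2. The poly-A spikes differed by 0.06 and -0.24, and the 18S ribosomal RNA probe sets were higher in both clones, by 0.49 and 0.62. The part of these shifts in the results was not tested. The Dppa3 probe set read 100.7 in the uncloned culture, 29.7 in clone 1 and 55.4 in clone 2, under the filter. Whether this probe set can read the transcript of the virus was not determined, and it therefore checks no label.

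Genes are ranked here by the smaller of their differences in the 2 clones, among those past 2-fold in both. Several genes at the top of that order were near the bottom of the signal range on one side. Agtr2, an X-linked receptor for angiotensin, and Btc, an epidermal growth factor family ligand, were strong in the uncloned culture and nearly lost from both clones. Renbp, the X-linked renin-binding protein, and Id3, an inhibitor of basic helix-loop-helix factors, were weak in the uncloned culture and strong in both. The 300-base promoter windows of Agtr2, Renbp and Id3, and of Slit2, which stood furthest apart between the clones, are given from RefSeq on GRCm38.p6, 5' to 3' on the strand of the gene. Agtr2 and Renbp head the falls and the rises in this order, and Slit2 the gaps between the clones. Id3 comes further down the rises, after AI662270, Dppa2 and Eml2. The 4 windows run from few to many CG pairs. Capitals mark CG pairs. DNA methylation was not measured.
Agtr2, chrX:21484374-21484673, plus strand: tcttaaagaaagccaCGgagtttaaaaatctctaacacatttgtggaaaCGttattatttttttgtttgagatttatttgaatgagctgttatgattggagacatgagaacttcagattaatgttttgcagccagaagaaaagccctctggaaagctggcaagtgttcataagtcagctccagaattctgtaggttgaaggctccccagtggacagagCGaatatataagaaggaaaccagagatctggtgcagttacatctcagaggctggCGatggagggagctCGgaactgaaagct
Renbp, chrX:73930801-73931100, minus strand: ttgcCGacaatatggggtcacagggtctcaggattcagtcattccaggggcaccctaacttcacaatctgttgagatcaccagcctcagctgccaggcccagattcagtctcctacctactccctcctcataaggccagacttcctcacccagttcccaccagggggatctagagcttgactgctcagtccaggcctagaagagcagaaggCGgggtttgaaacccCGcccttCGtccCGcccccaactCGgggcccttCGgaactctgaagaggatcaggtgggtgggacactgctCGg
Id3, chr4:136143572-136143871, plus strand: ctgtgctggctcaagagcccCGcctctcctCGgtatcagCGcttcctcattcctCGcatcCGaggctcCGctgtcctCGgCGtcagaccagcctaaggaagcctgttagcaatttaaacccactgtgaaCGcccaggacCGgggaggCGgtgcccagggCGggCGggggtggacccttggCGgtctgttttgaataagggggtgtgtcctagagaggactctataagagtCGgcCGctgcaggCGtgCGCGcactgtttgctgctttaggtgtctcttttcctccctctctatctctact
Slit2, chr5:47982905-47983204, plus strand: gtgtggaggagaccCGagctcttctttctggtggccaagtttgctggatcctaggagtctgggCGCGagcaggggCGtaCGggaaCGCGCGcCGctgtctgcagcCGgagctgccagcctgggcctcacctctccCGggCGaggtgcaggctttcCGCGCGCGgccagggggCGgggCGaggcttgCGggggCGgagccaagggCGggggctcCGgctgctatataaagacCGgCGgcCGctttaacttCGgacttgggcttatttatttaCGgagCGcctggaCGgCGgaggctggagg
The Agtr2 window holds 5 CG pairs, that of Renbp 8, that of Id3 19 and that of Slit2 30.

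Agtr2 had a signal of 2098 in the uncloned culture, 12.03 in clone 1 and 0.793 in clone 2. Both clones lay at the bottom of the signal range, so the difference of -7.20 ± 0.57 (limma adjusted p = 2.4e-09) depends on the added constant and was -5.26 with a constant of 50. Btc, a ligand of the epidermal growth factor receptor, read 1767, 66.0 and 102.9 in the uncloned culture, clone 1 and clone 2. Its uncloned signal was 20.9 times the mean of the clones (difference -4.28 ± 0.31, limma adjusted p = 5.1e-10), and its other probe set was lower in the clones too.

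Several secreted and membrane proteins fell together with them. Nsg1, an endosomal sorting protein, read 666.1 in the uncloned culture against 19.4 and 57.6 in clones 1 and 2. Slc14a1, a urea transporter, was among the brightest of the lower genes, at 8441 against 1380 and 1292. Its difference of -2.65 ± 0.13 (limma adjusted p = 6.7e-13) was thus far larger than its gap of -0.09 between the clones. Slc38a4, an imprinted amino acid transporter, read 686.0, 91.2 and 110.9. Igfbp4, which binds insulin-like growth factors, read 7131, 1289 and 1403, a 5.30-fold lower mean signal, and all 5 other tested probe sets of the gene were lower as well. By these probe sets the clones differed by 0.26 or less in size, except for Nsg1, which differed by 1.23. A dimmer Igfbp4 probe set was 1.67 lower in clone 2 than in clone 1.

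Regulators of G protein signalling and adhesion molecules stood out among the other falls. Rgs16 and Rgs2, which switch off G protein alpha subunits, read 4264, 703.8 and 1055, and 744.7, 158.6 and 166.1, in the uncloned culture, clone 1 and clone 2. Itgb3, the integrin beta chain of the vitronectin receptor, read 680.6, 151.4 and 129.9. Cdh11, a cadherin typical of mesenchymal cells, read 491.5, 117.8 and 57.3. Ankrd1, a mechanically regulated target of YAP and TEAD, read 393.2, 101.7 and 69.2. Chrna1, the alpha subunit of the muscle acetylcholine receptor, read 1648, 389.8 and 397.4. Gxylt2, Kank3 and Nlrp4e completed the first 15 falls in this order, with mean differences of -2.30, -2.84 and -2.26. Slit2, with a larger mean fall of -3.75, came later because its difference in clone 1 was -1.72.

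Among the rises, Renbp read 9.26 in the uncloned culture, 856.4 in clone 1 and 1448 in clone 2 (5.94 ± 0.30, limma adjusted p = 6.9e-13). Its uncloned signal was under the 25th percentile of all signals, 11.5, so this difference depends on the added constant. That signal was also under the filter signal of 59.1, so Renbp was tested only because of the clones. Id3 rose from 112.7 to 3131 and 2005, which is 27.8-fold and 17.8-fold (4.37 ± 0.20, limma adjusted p = 2e-13). Its relative Id1, likewise a direct target of bone morphogenetic protein signalling, rose from 555.5 to 2561 and 1848. Both Id genes were higher in clone 1 than in clone 2, by 0.64 for Id3 and 0.47 for Id1.

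Germ cell genes were among the genes that appeared. Dppa2, a chromatin factor of pluripotent and germ cells, read 16.6, 889.8 and 488.9 in the uncloned culture, clone 1 and clone 2. Tex11, an X-linked gene of meiosis, read 34.1, 317.6 and 526.3. Only these genes rose among the 7 tested members of a germline list (1 with either clone left out), and 1 of 5 rose without X-linked members. The list as a whole was mostly under the filter: 26 of its genes are on the array. Dppa2 and Tex11 read under the filter signal of 59.1 in the uncloned culture and were tested only because of the clones. The count therefore says nothing about the list. AI662270 read 4.05, 571.2 and 562.1, and Speer4a, of a testis gene family with near copies whose signals may not be separable, read 15.8, 543.9 and 384.0. Eml2, a microtubule-associated protein, read 15.3, 423.2 and 425.6. For AI662270 and Eml2 the clones were nearly equal, with log2 gaps of -0.02 and 0.01.

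The uncloned signals of the remaining large rises ran from 11.2 to 220.7. Bhlhb9 and Rab39b, the latter a neuronal GTPase and both X-linked, read 127.7, 1616 and 1340, and 11.2, 224.7 and 250.3. Slc30a1, the zinc exporter that responds to zinc load, read 88.8, 550.0 and 519.0. Kcnab1, a potassium channel beta subunit, read 179.9, 1131 and 1005. Paqr8, a membrane progestin receptor, read 220.7, 1428 and 1146, and its 3 other tested probe sets were higher too. Bpifc, Fhod3 and Tspan2 had differences of 2.52, 2.69 and 2.68. The 15 rises and 15 falls are plotted by culture. In genes at least 2-fold the same way in both clones, 160 of 169 other tested probe sets of the same genes (94.7%) differed in the same direction.

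**Figure D1:**
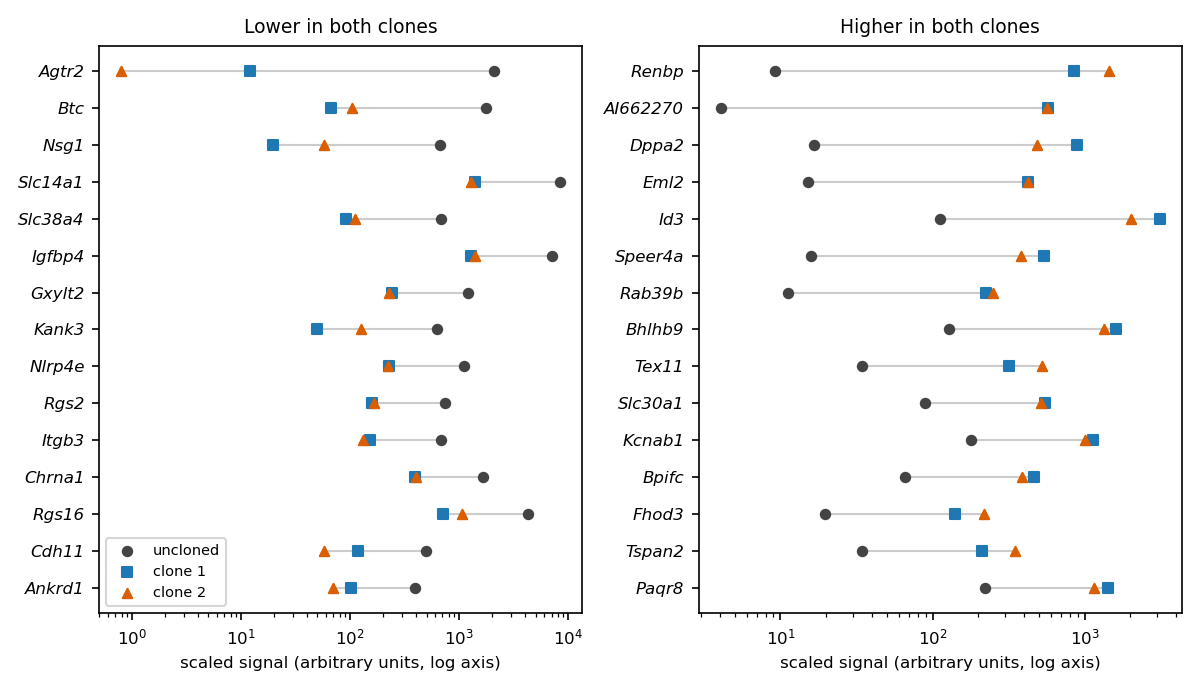
Scaled signal (log axis, arbitrary units) of the first 15 falls and 15 rises, ranked by the smaller of the clones' differences, each point 1 array. By the rule that chose these genes, the uncloned point lies apart from both clone points in every gene. The panels run from Agtr2 (2098 against 12.03 and 0.793) to Paqr8 (220.7 against 1428 and 1146).

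Position on the chromosomes separated the uncloned culture from the clones. Over 318 tested X-linked genes the median difference was 0.57 in clone 1 and 0.57 in clone 2, against -0.01 and 0.01 over 10198 autosomal genes. Of the X-linked genes 51.6% rose, against 7.63% of autosomal genes, and 0.629% fell. The X-linked differences ran, from their 25th to their 75th percentile, from 0.28 to 0.83 in clone 1 and from 0.29 to 0.80 in clone 2, so most of the chromosome was shifted and not a few genes. Between the clones the X-linked median was -0.03. Both clone differences are taken from the same uncloned array, so a shift of that array would enter both, and they are not 2 independent measurements. Which array is the unusual one cannot be told apart here. X-linked genes were already known to stand apart in these data, so this is given as a description with no test of the chromosome.

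Bright X-linked genes were among those that rose. Pgk1, a glycolytic enzyme, read 15090, 22250 and 22690 in the uncloned culture, clone 1 and clone 2. Ndufa1 and Ndufb11, subunits of respiratory complex I, read 7898, 12390 and 12720, and 5333, 10250 and 9365. Hprt, a purine salvage enzyme often used as a reference gene, read 2811, 4062 and 4380. Flna, an actin cross-linker, read 4538, 6348 and 6576. Each of these rose. Kdm5c, a histone demethylase that escapes X inactivation, was dimmer, at 189.6, 436.0 and 385.5. It rose by its brightest probe set, but none of its 4 other tested probe sets passed, with differences of 0.76 at most. Beyond Renbp, Rab39b, Bhlhb9 and Tex11, the highest were Tmem47 (2.22 ± 0.40) and the synaptic vesicle gene Syn1 (2.02 ± 0.37). Tmem47 and Syn1 read 36.8 and 52.9 in the uncloned culture, under the filter signal, and were tested only because of the clones.

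On the other side, Agtr2 and Piga were the X-linked genes that fell by their brightest probe set. Piga, which starts the synthesis of glycosylphosphatidylinositol anchors, read 579.5, 353.5 and 326.6. Its other tested probe set showed no fall, at 192.3, 181.4 and 194.4 (difference -0.03). Plac1, Zdhhc9, 2010204K13Rik and Prps1 came next with differences of -0.90, -0.68, -0.59 and -0.44 that did not pass the test. The 3 Xist probe sets, for the RNA that silences an X chromosome, read 42.0, 55.2 and 64.3 at most in the uncloned culture, clone 1 and clone 2 and were under the filter.

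**Figure D2:**
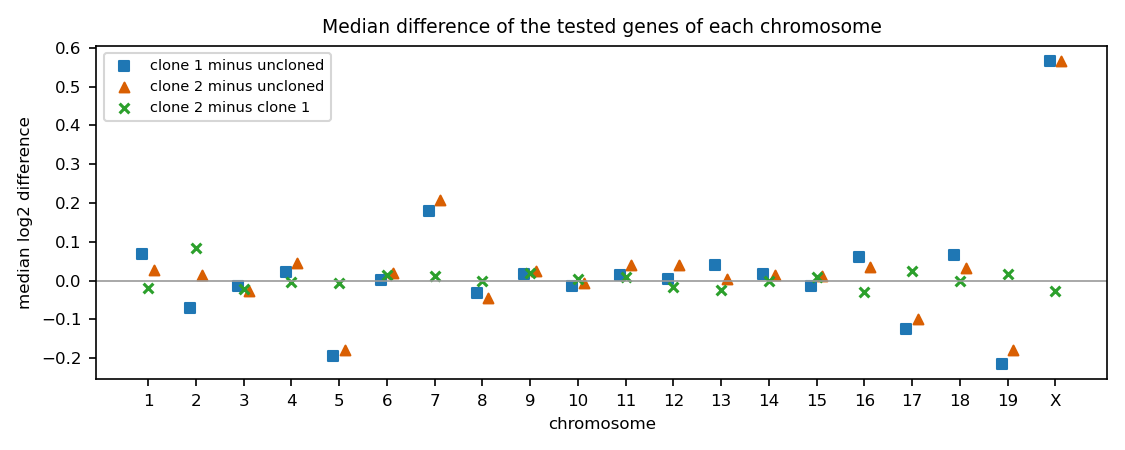
Median log2 difference of the tested genes of each chromosome for clone 1 and clone 2 against the uncloned culture and for clone 2 against clone 1. The X chromosome lies at 0.57 in both clones, chromosome 7 at 0.18 and 0.21, chromosomes 5 and 19 near -0.2, and the differences between the clones stay between -0.03 and 0.08.

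Parts of some autosomes were shifted as well. The median of chromosome 7 was 0.18 in clone 1 and 0.21 in clone 2. The medians of chromosomes 5, 17 and 19 were -0.19, -0.13 and -0.21 in clone 1 and -0.18, -0.10 and -0.18 in clone 2. Of the genes of chromosome 19, 22.6% fell and 1.56% rose. With the genes put in chromosome order and a running median taken over 41 neighbours, relative to all autosomal genes, stretches of at least 40 genes lay beyond 0.2 in both clones. On chromosome 7 they ran from Il11 to Fbxo46 (77 genes, 17 of them higher by the test) and from Gsk3a to Mphosph10 (228 genes, 64 higher and 3 lower). The latter stretch had a median of 0.40 in clone 1 and 0.36 in clone 2, and genes beyond it lay near 0.

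On chromosome 17 the lower stretches ran from Agpat4 to Hcfc1r1 (49 genes, 16 of them lower) and from Dcpp3 to Rps10 (87 genes, 20 lower and none higher). On chromosome 19 a stretch from 9930021J03Rik to Scd2 held 79 genes, of which 22 fell. Chromosome 1 had a higher stretch from Ncoa2 to Mitd1 (56 genes, 16 higher), and chromosome 5 a lower one from Ost4 to Tacc3 (40 genes, 8 lower). On the X chromosome the stretch covered every position at which the running median could be taken, from Pqbp1 to Rbbp7. The stretches that start at Il11, Ncoa2 and Agpat4 also began at the first such position of their chromosomes. These genes therefore mark the edge of the running median and not a border of the shift. Between the clones the running median stayed between -0.13 and 0.17 over the whole genome, and no stretch passed 0.2.

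**Figure D3:**
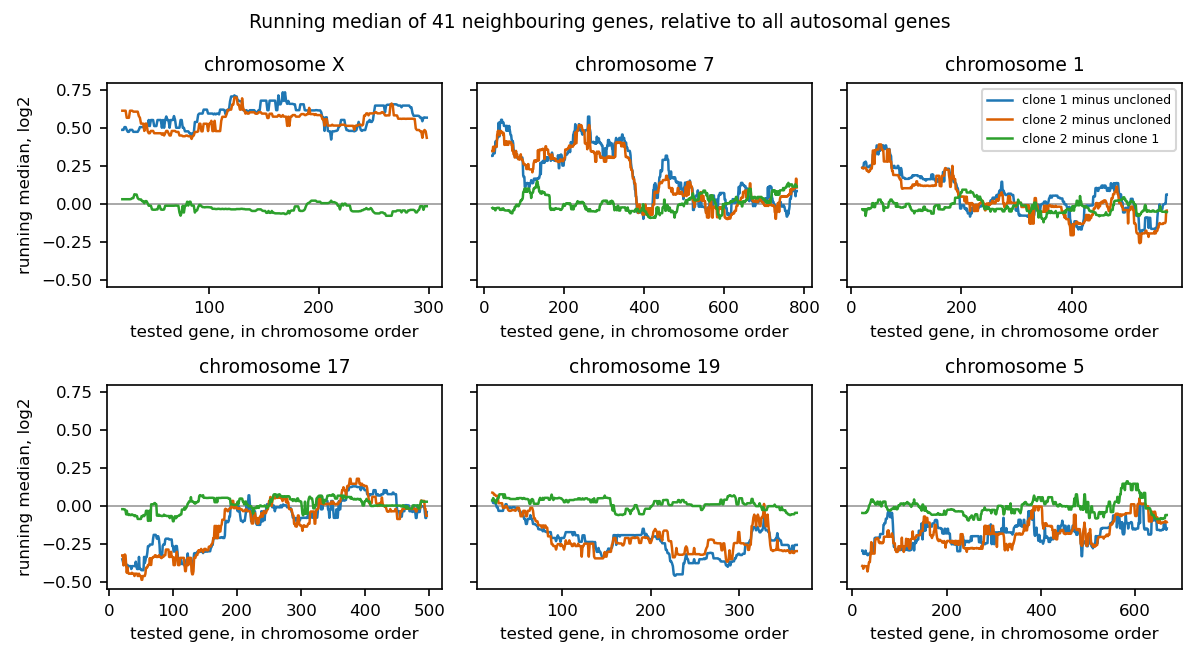
Running median of the log2 difference over 41 neighbouring tested genes, relative to all autosomal genes, along the 6 chromosomes that held stretches beyond 0.2. The clone 1 and clone 2 lines rise above 0.42 along all of X, step down partway along chromosome 7 and lie under 0 at the start of chromosome 17, while the line for clone 2 against clone 1 stays near 0.

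Genes of sterol synthesis made up the list with the largest share of falls. Of 24 tested genes of cholesterol and fatty acid synthesis, 13 fell and none rose, and the median difference was -0.47 in clone 1 and -0.34 in clone 2 against 0.00 and 0.02 over all tested genes. Those that fell included Hmgcs1, Mvd, Pmvk, Idi1, Fdps, Fdft1, Lss, Cyp51, Sc5d, Hsd17b7 and Dhcr7 along the sterol pathway, and the fatty acid enzymes Scd1 and Elovl6. Cyp51, the lanosterol demethylase, read 6835 in the uncloned culture, 2974 in clone 1 and 3951 in clone 2. Dhcr7, the last enzyme of the pathway, read 1530, 710.6 and 919.9, and Lss, lanosterol synthase, read 3899, 1876 and 2300. In Cyp51, Dhcr7 and Lss clone 1 was lower than clone 2, by 0.41, 0.37 and 0.29. The count of falls was 16 with the values as deposited, a setting in which 3810 of 21999 probe sets fell and 463 rose. It was lower with either clone left out, as was the count over all probe sets.

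Transcription factors and feedback genes induced within minutes of growth factor stimulation were lower in more cases than higher. Of 31 tested, 8 fell and 1 rose, with a median of -0.20 in clone 1 and -0.22 in clone 2 (no rise and 15 falls as deposited, 3 falls with clone 1 or clone 2 left out). Klf4 read 4759, 2307 and 2473 in the uncloned culture, clone 1 and clone 2. Myc, the growth-promoting transcription factor, read 2759, 1576 and 1254. Nr4a1, Fosl2, Dusp5, Ier3, Ier5 and Egr3 also fell, and Egr1 rose. Of 10 regulators of G protein signalling, 4 fell and none rose: Rgs3 and Rgs17 (differences of -1.17 ± 0.27 and -1.06 ± 0.21) besides Rgs2 and Rgs16. Without clone 1 or clone 2 that count was 2. Rras2, a Ras-related GTPase, fell from 3370 to 980.1 and 1103.

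Genes of the G1 to S transition and of DNA replication that passed the test were higher in the clones. Of 31 tested, 9 rose and none fell, and the median was 0.33 in clone 1 and 0.22 in clone 2. Mcm3, part of the replicative helicase, read 2773, 4900 and 4852 in the uncloned culture, clone 1 and clone 2. Ccne1 and Ccne2, the E-type cyclins, read 733.5, 1252 and 1186, and 484.0, 821.6 and 713.5. Chaf1b, E2f1, Cdc6, Rrm2, Cdt1 and Pcna rose too. This count fell to 1, with 2 falls, when the values were used as deposited, and it was 4, with 1 fall, without clone 1 and 5 without clone 2. Genes of G2 and mitosis showed 2 rises and 1 fall among 33 (none and 3 as deposited).

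Lysosomal genes rose at 8 of 23 and fell at none (3 rises and 1 fall as deposited). Gla and Atp6ap1 are X-linked, and without X-linked members 6 of 20 rose. Tfeb, the factor that drives lysosomal genes, read 53.9, 164.7 and 255.8, and Npc1, a lysosomal cholesterol exporter, read 492.4, 829.7 and 727.8. Tfeb read under the filter signal of 59.1 in the uncloned culture. It was tested only because of the clones and adds no weight to the lysosomal counts. Among antioxidant and heat shock genes 6 of 23 rose and none fell (2 and 2 as deposited): Hmox1, Gsta4, Gstm1, Nqo1, Gclc and Txnrd1. Hmox1, haem oxygenase, read 248.1, 530.9 and 524.6. Leaving out clone 1 left 5 lysosomal and 1 antioxidant rise, and leaving out clone 2 left 3 and none.

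Interferon-stimulated genes went both ways, with 7 of 19 higher and 2 lower (4 and 3 as deposited). Without clone 1 it was 4 and 1, and without clone 2 it was 1 and 1. Gbp2 and Igtp, interferon-inducible GTPases, read 86.9, 285.0 and 431.1, and 28.5, 87.6 and 220.7. Igtp read under the filter signal of 59.1 in the uncloned culture. It was tested only because of the clones and adds no weight to the count of rises. Samd9l, Dtx3l, Parp9, Trim30a and Irf1 also rose. Ifit2, an RNA-binding antiviral protein, fell from 1068 to 439.8 and 442.2, and Stat2 fell as well. None of 14 antigen presentation genes passed the test in limma by its brightest probe set (4 fell as deposited), and Psmb10 differed by 0.51 ± 0.26. A dimmer probe set of Tapbp, which loads peptides, did pass, at 725.6, 1038 and 1603 (limma adjusted p = 0.0048), while its brightest read 2234, 2444 and 3109. Of 18 chemokine, cytokine and adhesion genes 4 rose and 1 fell (3 and 3 as deposited, 2 and none with either clone left out). Nfkb2, a subunit of NF-kappa B, read 1051, 463.1 and 746.4, and its other tested probe set was higher in the clones. Il33, an alarmin, went from 3347 to 7330 and 12570, and Csf1, the macrophage growth factor, from 1265 to 3132 and 2867.

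**Figure D4:**
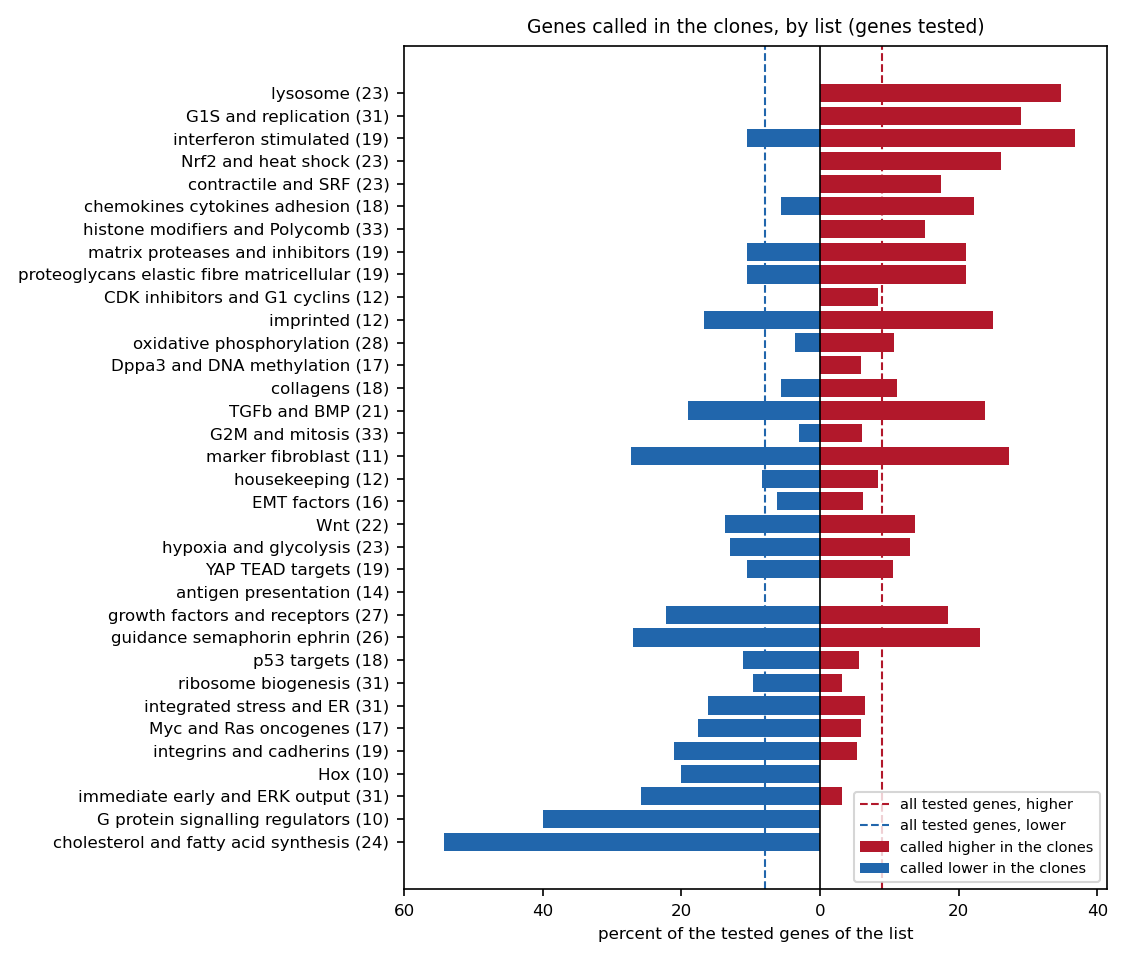
Percent of the tested genes of each list with at least 10 tested genes that were called higher (right) or lower (left) in the clones than in the uncloned culture, with dashed lines at 8.94% and 7.88% for all tested genes. Cholesterol synthesis (13 of 24 lower) and the regulators of G protein signalling (4 of 10 lower) reach furthest to the left, and interferon-stimulated genes (7 of 19) and lysosomal genes (8 of 23) furthest to the right. The rises of the last lists include Igtp and Tfeb, which passed the filter only through the clones.

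Growth factor and matrix genes changed in both directions. Of 27 growth factors and receptors 5 rose and 6 fell (3 and 8 as deposited), but with either clone left out none rose and 1 fell. Igfbp7, a secreted binding protein, rose from 163.1 to 768.6 and 804.0, and Vegfd, an X-linked lymphatic growth factor, from 206.4 to 590.8 and 624.2. The platelet-derived growth factor receptors parted: Pdgfrb rose from 2267 to 3990 and 4049, and Pdgfra fell from 8505 to 4882 and 6596. The CCN matricellular proteins parted too, with Ccn1 at 734.5, 169.8 and 232.8 and Ccn2 at 151.0, 486.0 and 601.7. Both are named as targets of YAP and TEAD, a list of 19 with 2 rises and 2 falls, and 1 of each with either clone left out. Thy1, a fibroblast surface glycoprotein, fell from 2487 to 790.2 and 873.0.

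Adhesion and guidance genes held further large differences. Of 19 integrins and cadherins 4 fell (Itgb3, Cdh11, Itga3 and Itgb5) and 1 rose, and without clone 2 only 1 fell and none rose. Itga3, a laminin-binding chain, read 862.8, 294.8 and 283.6. Of 26 guidance genes 7 fell and 6 rose (7 and 1 as deposited, 3 and 4 without clone 1, 3 and 2 without clone 2). The ligands Sema3a, Sema4b, Sema7a, Efna5, Efnb2 and Slit2 and the receptor Epha2 fell, and the receptors Nrp2, Plxna1, Plxna2 and Plxnd1 and the ligands Sema4c and Efna1 rose. Nrp2, a coreceptor for semaphorins and vascular growth factors, read 268.2, 800.8 and 1049. Ctsk, a collagen-degrading protease, rose from 106.5 to 695.2 and 384.8, and Adam19, a membrane protease, fell from 2478 to 1063 and 904.1.

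Genes tied to DNA methylation, the process on which PGC7 is known to act, showed little. Of 17 tested, 1 rose and none fell (1 and 2 as deposited): Zbtb33, an X-linked protein that binds methylated DNA, at 620.9, 1372 and 1088. Among 12 imprinted genes 3 rose and 2 fell (1 and 1 with either clone left out), with Impact, a regulator of translation, at 1257, 3051 and 3168 and Dlk1, a Notch-like membrane protein, at 16820, 26830 and 26180. Of 33 histone modifiers and Polycomb genes 5 rose and none fell (1 and 2 as deposited, 2 rises without clone 1 and 1 without clone 2), and 2 of 28 rose without X-linked members. Promoter windows of genes at least 2-fold higher in both clones held a median of 12.5 CG pairs (154 windows), against 16 for those 2-fold lower (104 windows), 13 for those 2-fold apart between the clones (137 windows), 17 for X-linked and 22 for all tested genes (8639 windows). For all genes that rose the median was 19 (757 windows), and for all that fell it was 22 (699 windows). Over all 27025 windows of the table the median was 7. Each set chosen by 2-fold lay under the median of all tested genes, so a low count is not particular to genes higher in the clones. Dim probe sets carry many of the 2-fold differences, and no set matched for signal was computed. Of the 2-fold higher genes 4.55% held an E-box (CACGTG) in the window, against 10.5% of all tested genes and 7.24% of all windows. The AP-1 motif (TGAGTCA) was in 5.20%, against 3.40% and 5.17%, the TEAD motif (GGAATG) in 13.6%, against 11.8% and 14.6%, and the interferon response core (GAAANNGAAA) in 5.20%, against 2.79% and 3.49%. In the 2-fold lower genes these shares were 9.62%, 5.77%, 15.4% and 0.962% in the same order. In the larger set of all genes that rose they were 11.0%, 3.30%, 13.5% and 3.17%. In all genes that fell they were 8.73%, 4.01%, 10.7% and 2.15%. The low E-box share of the 2-fold higher genes was thus not seen in all genes that rose. Both strands were searched, and a match is not a site.

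The clones themselves were at least 2-fold apart at 527 probe sets, 252 higher in clone 2 (1.15%) and 275 lower (1.26%), and with 1 array each these differences have no test. Per gene, 170 (1.61%) were 2-fold apart, 121 higher in clone 2 (1.15%) and 49 lower (0.464%). The uncloned signal lay between the clones at 330 of the 527 (62.6%). Choosing probe sets by a gap between the clones makes such a position likely, and no share to set beside it was computed. Most were dim: among the 11211 probe sets that passed a filter at the 75th percentile only 19 were 2-fold apart. The standard deviation of the difference between the clones was 0.59 in the dimmest of 4 equal classes of probe sets by signal and 0.17 in the brightest. In the genes 2-fold apart, 39 of 52 other tested probe sets differed in the same direction, 6 of them by 2-fold.

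Slit2, a secreted axon guidance protein that signals through Robo receptors, was furthest apart. It read 829.1 in the uncloned culture, 245.8 in clone 1 and 6.27 in clone 2. The uncloned culture was highest and clone 2 lay at the bottom of the signal range. Its other probe sets were under the filter. Pla2g7, which hydrolyses platelet-activating factor, read 1037, 2095 and 235.6, so that the clones lay on opposite sides of the mixture. Smoc2, a calcium-binding matrix protein, read 114.7, 986.4 and 181.9, and its other probe set was also higher in clone 1. Man1a, a Golgi mannosidase, was bright in all cultures, at 1892, 4136 and 1587. Malat1, a nuclear non-coding RNA, read 2170, 1835 and 435.9, and its 6 other tested probe sets were lower in clone 2 as well, by 0.34 to 0.59, far less than the 2.05 of the first. Kcnj11, Tenm4, Cib4, Car6, Cth, Ttc14 and Zbtb14 were lower in clone 2 by 1.21 to 1.79. For Zbtb14 and Ttc14 this rests on the brightest probe set: the 3 others of Zbtb14 were lower in clone 2 by only 0.01 to 0.25, and of the 8 others of Ttc14 6 were lower, none by 2-fold.

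Higher in clone 2 were Acpp, the prostatic acid phosphatase, at 355.0 in the uncloned culture, 12.6 in clone 1 and 236.5 in clone 2, and Zdhhc12, a palmitoyl transferase, at 330.5, 25.6 and 180.1. Il17re, an interleukin 17 receptor chain, read 421.5, 51.7 and 267.3. The other probe sets of Acpp and Il17re were under the filter and went both ways between the clones. In clone 1 and clone 2 those of Acpp read 29.2 and 15.2, and 6.62 and 81.9. Those of Il17re read 36.0 and 28.3, and 6.32 and 44.7. Pi16, a secreted peptidase inhibitor of fibroblasts, read 2111, 531.8 and 1607. For these genes clone 1 was the culture that stood apart, and the mixture lay nearer clone 2. Golga7b read 117.9, 49.8 and 306.7, with the mixture between the clones. Hdac8, an X-linked histone deacetylase, read 87.0, 78.0 and 244.3. Lce3b, Nrxn3, Hcrt, Fam71d, Kbtbd13 and Ccdc180 were higher in clone 2 by 1.55 to 1.92 with no signal above 300.

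Some genes that define the contractile fibroblast also separated the clones. Acta2, smooth muscle actin, read 6200 in the uncloned culture, 3169 in clone 1 and 8124 in clone 2, and Tagln, an actin-binding protein, read 250.3, 237.3 and 569.0. They were the only tested contractile genes 2-fold apart between the clones, out of 23, against 1.61% of all tested genes. The contractile genes that rose were others, Mylk, Csrp2, Flna and Csrp1, and without the X-linked Flna 3 of 22 rose. None did so with the values as deposited, 3 contractile genes did without clone 1 and 1 without clone 2. By its other tested probe set Mylk read 104.4, 87.3 and 144.5 in the uncloned culture, clone 1 and clone 2 and did not pass (difference 0.10). The chemokine genes Ccl7 and Ccl8 read 557.8, 419.9 and 955.9, and 1108, 1624 and 3273. Gpnmb, a lysosomal membrane glycoprotein, read 707.9, 655.6 and 1575, and the guidance receptor gene Plxnb1 read 138.2, 88.4 and 238.3. No tested gene of the cholesterol synthesis, collagen, growth factor or mitosis lists (24, 18, 27 and 33 tested) was 2-fold apart between the clones. With 1.61% of all tested genes apart, few would be looked for in lists of this size. Several other lists, such as Wnt and Hox, held none either, so this is no trait of these lists.

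**Figure D5:**
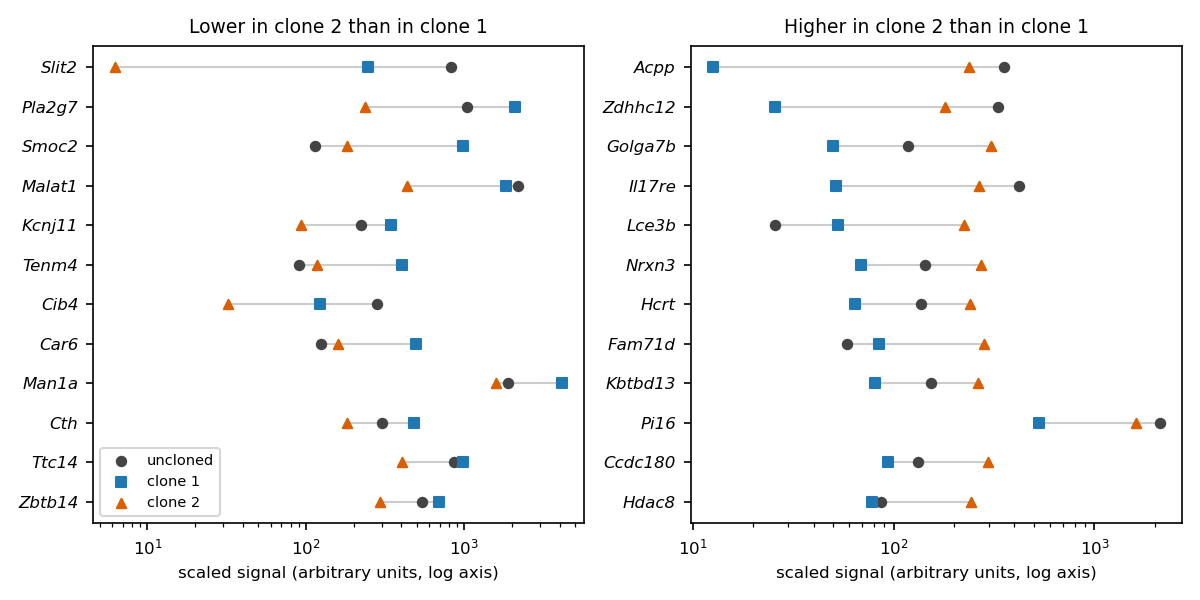
Scaled signal (log axis, arbitrary units) in the uncloned culture and both clones of the 12 genes furthest lower and the 12 furthest higher in clone 2 than in clone 1, each point 1 array. Slit2 falls from 245.8 in clone 1 to 6.27 in clone 2, Acpp goes from 12.6 to 236.5, and the uncloned point lies between the clones in some genes and outside them in others.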

How the data were processed

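RNA of each culture was hybridized to 1 Affymetrix 3' expression array. The deposited values are intensity signals on a linear scale, made by the authors with MAS5 per the submitters' processing notes; no version or settings were named there. The deposited trimmed means of the 3 arrays (2% off each end) were 188.7, 143.4 and 159.2, so each array was multiplied to 500. Values were taken as log2(signal + 9). Of 45101 probe sets, 64 controls were left out and 21901 had a mean at or above a signal of 59.1, the median of all values. Probe sets with 1 gene symbol (34958; 932 had several, 9211 none) were matched to GRCm38.p6 gene identifiers, and a gene was read by its brightest probe set. limma 3.58.1 in R 4.3.3 (lmFit, eBayes with trend, two-sided, Benjamini-Hochberg adjustment over all tested probe sets) compared the 2 clones with the uncloned array. The lone uncloned array was assumed to vary like the clones, with 1 residual and 23.2 prior degrees of freedom. The script was tested on simulated data, where unchanged probe sets made up a larger share of the calls than the threshold implies. Since each clone has 1 array, a p-value here measures spread that may be clonal or technical. The number of arrays limits the precision.

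Genes were named by rule: with a highest signal of at least 200, the 15 largest rises and 15 largest falls past 2-fold in both clones (ranked by the smaller of both differences), the 12 furthest apart between the clones in each direction, Dppa3, Xist, up to 4 called members and up to 2 members apart between clones of each of 43 gene lists (982 of 1051 entries on the array), and the X-linked extremes. Other list members are named only as called. The members, lists and rules were chosen with earlier results of these data known. Alternatives were other scalings, added constants of 1 and 50, no filter and a stricter filter, a prior without trend, B16F10 clones sharing the spread, and leaving out each clone.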

Additional observations from a re-analysis of the deposited data

How the results depend on the processing

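The count of 3265 probe sets was within 1.5 times under 6 alternatives (2616 to 4273: values as deposited, quantile normalization, a common median, constants of 1 and 50, a stricter filter). It was 601 with no filter, 0 with no intensity trend, 2139 when the B16F10 clones shared the spread, and 1119 to 1325 leaving out a clone. The counts past 2-fold moved with the constant and the filter, since dim probe sets carry many of them. With a constant of 50, no filter and the stricter filter, in that order, the probe sets past 2-fold in both clones were 463, 3308 and 204, those apart between the clones 197, 7087 and 19, those with clone 1 apart 53, 2749 and 4, and those with clone 2 apart 63, 2933 and 9. Clone 2 stood apart at 99 with the values as deposited. Counted in a single clone, 1340 to 1511 were past 2-fold. The X-linked median less the autosomal one was 0.55, and 0.54 as deposited, 0.51 with a constant of 50, 0.39 with no filter, 0.57 with the stricter filter, 0.56 to 0.58 leaving out a clone and 0.53 with the mean of all probe sets of a gene. The cause of the other moves was not tested. Of 147 called genes named by the rule, none changed sign under the alternatives in which it was tested (90 were tested under the stricter filter and 146 with a constant of 1). Of these 147, 91 still passed when the B16F10 clones shared the spread, 131 after quantile normalization, 115 as deposited, 55 with no filter, 63 without clone 1 and 56 without clone 2. The medians of 25 of 41 gene lists changed sign with the values as deposited, and of at most 4 under other scalings, filters or clones left out. No paired analysis was possible because the uncloned culture has 1 array and shares fewer than 2 replicate numbers with the clones.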
